A study of Rattus norvegicus with 6 samples.

Results

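The glucocorticoid receptor and 8 genes of the kidney that belong to its pathway were followed in the renal cortex of rats given 1-amino-2,4-dibromoanthraquinone (ADBAQ), a brominated anthraquinone used to make dyes. The 9 genes were Nr3c1, Hsd11b1, Fkbp5, Tsc22d3, Klf9, Zbtb16, Errfi1, Ddit4 and Pck1. They were found by matching the RefSeq transcript named for each probe to a gene symbol, which gave 20 of 61657 probes and 9 of 15284 genes. All 9 genes passed the detection filter and were among the 12007 genes tested. The set was put together with the contrast of ADBAQ against corn oil already known, and the low values of Zbtb16 and Ddit4 had been seen. Their differences in that contrast are therefore given as a description, and the count of limma's calls among them is no test of them.

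The series compared 3 male Sprague-Dawley rats (Crl:CD(SD), 5 weeks old when bought) that received corn oil for 4 weeks with 3 that received ADBAQ at 1000 mg/kg/day for 4 weeks, on the same basal diet. Age at the end, route and hour of sampling are not given in the sources used here. RNA of each rat was hybridised alone to a 1-colour Agilent rat array. Signals are given as log2 values relative to the 75th percentile of the array, so that 0 is the 75th percentile and a step of 1 is a doubling. They do not allow the level of a gene to be set against that of another gene.

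The 75th percentile lay at 1126 to 1177 units on the corn oil arrays and 1279 to 1306 after ADBAQ. Detection, as the scanner software's flag for a signal well above background, reached 69.0% to 72.3% of probes per array. All corn oil arrays lay on 1 slide and all ADBAQ arrays on another, read on different days, so an effect of treatment and one of slide or scan cannot be told apart. Markers of the renal cortex were well above background on all 6 arrays, among them Lrp2 and Cubn of the proximal tubule and Umod of the thick limb. Over all genes, limma (adjusted p under 0.05) called 27 higher and 8 lower after ADBAQ, 0.291% of those tested (1027 and 54 without scaling between arrays).

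Glucocorticoids, corticosterone in the rat, act through a receptor that waits in the cytoplasm in a complex with heat shock proteins and immunophilins. With hormone bound it enters the nucleus and raises the transcription of genes such as Fkbp5, Tsc22d3, Klf9, Per1 and Sgk1, while it holds down many inflammatory genes. In the kidney it promotes gluconeogenesis, ammonia formation and salt transport, and the enzymes Hsd11b1 and Hsd11b2 respectively regenerate and inactivate the hormone inside cells.

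The receptor binds a palindrome made of the arm AGAACA, 3 bases of any kind and the arm TGTTCT, and the start regions of the genes were searched for it. RefSeq windows (build GRCr8, from 250 bases before to 50 after a transcript start) were matched for 7 of the 9 genes, giving 10 windows. Hsd11b1 and Zbtb16 had no entry. Both strands were searched. The full palindrome was in 0 of the 10 windows and in 0.0149% of 33469 windows of all genes. A looser form, in which each arm keeps only GNACA (TGTNC in the second arm), was in 0 of 10, against 0.439%, and the single arm TGTTCT in 0 of 10, against 20.7%. These matches overlap by construction, since the full form contains the arm and the looser form. Absence says only that these letters are not in these windows.

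Other short motifs were present in them. The core of the site bound by the aryl hydrocarbon receptor, GCGTG, was in 7 of the 10 windows (29.7% of all windows), the core of the cyclic AMP response element, TGACG, in 4 (21.2%) and the forkhead site TGTTTAC, bound by FOXO factors, in 2 (3.78%). The 10 windows come from 7 genes and are not independent. The shares over all windows were not matched for base composition, so no enrichment can be read from them. In the 36 windows of the list of other induced genes described below, the same motifs were in 11, 10 and 1. The stretch of 250 bases before the start is shown for the 3 genes whose groups did not overlap on a probe well above background on all arrays and which have a window. For Tsc22d3 it is the window of 3 that holds the forkhead site. Capitals mark these 3 motifs on either strand.
Ddit4 (chr20:28437038-28437287, minus strand): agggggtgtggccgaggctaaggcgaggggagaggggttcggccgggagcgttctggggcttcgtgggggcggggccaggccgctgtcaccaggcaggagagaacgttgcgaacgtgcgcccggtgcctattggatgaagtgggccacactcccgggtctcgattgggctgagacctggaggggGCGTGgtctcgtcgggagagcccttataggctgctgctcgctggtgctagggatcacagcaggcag
Klf9 (chr1:230126396-230126645, plus strand): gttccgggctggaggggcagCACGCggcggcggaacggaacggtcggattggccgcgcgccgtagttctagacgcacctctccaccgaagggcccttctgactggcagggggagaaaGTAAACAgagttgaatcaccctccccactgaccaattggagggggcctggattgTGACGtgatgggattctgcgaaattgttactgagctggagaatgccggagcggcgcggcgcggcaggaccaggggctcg
Tsc22d3 (chrX:109010035-109010284, minus strand): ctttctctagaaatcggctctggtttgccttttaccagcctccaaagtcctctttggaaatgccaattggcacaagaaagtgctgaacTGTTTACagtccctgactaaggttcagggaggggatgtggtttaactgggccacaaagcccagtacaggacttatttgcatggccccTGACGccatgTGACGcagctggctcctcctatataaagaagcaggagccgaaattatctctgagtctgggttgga
The Ddit4 stretch held a single match, GCGTG at position -66, counted from the base before the start as -1. Those of Klf9 and Tsc22d3 held 3 each. Both had a forkhead site, at -133 in Klf9 and at -162 in Tsc22d3, whose window was picked for it. They also had the core of the cyclic AMP response element, at -79 in Klf9 and at -75 and -65 in Tsc22d3. The other windows of Tsc22d3 held neither motif.

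The receptor gene itself and the enzyme that regenerates its hormone showed little difference. Nr3c1 encodes the glucocorticoid receptor. Its log2 signals were 0.91, 0.88 and 0.91 on the corn oil arrays and 0.86, 0.96 and 0.95 on the ADBAQ arrays. The 6 values overlapped within a narrow range, and the difference was 0.02 ± 0.06 SE (n = 3 per group). Its other probes gave 0.06 ± 0.08 and 0.12 ± 0.13 SE. Hsd11b1, the reductase that makes active corticosterone from its inactive form, had log2 signals of 6.14, 5.74 and 6.08 in corn oil and 6.18, 6.02 and 6.01 after ADBAQ. These also overlapped. The difference was 0.08 ± 0.12 SE, and -0.01 ± 0.11 SE by the other probe.

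Fkbp5 encodes FKBP51, a co-chaperone that lowers the affinity of the receptor for hormone and is itself induced by it. Its log2 signals were 1.12, 2.00 and 2.79 in corn oil and 1.29, 1.14 and 1.27 after ADBAQ. The lowest corn oil animal lay below all 3 ADBAQ animals and the other 2 lay above them, so the groups overlapped. The mean difference was -0.74 ± 0.40 SE, -0.33 without corn oil replicate 3 and -1.17 without corn oil replicate 1. The other probes showed the same order of the corn oil animals, with log2 signals of -1.23, -0.72 and 0.52 on one and -2.67, -1.97 and -0.99 on the other. On these, corn oil replicate 1 lay among the ADBAQ animals instead of below them. Corn oil replicate 3 was the highest array on all 3 probes.

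Tsc22d3 encodes GILZ, a leucine zipper protein that mediates much of the anti-inflammatory action of glucocorticoids. Its log2 signals were 1.94, 2.10 and 2.12 in corn oil and 1.45, 1.73 and 1.57 after ADBAQ. All ADBAQ arrays lay below all corn oil arrays, with a gap of 0.21, and the difference was -0.47 ± 0.10 SE. The other probe gave -0.53 ± 0.15 SE, also with no overlap.

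Klf9, a zinc finger repressor induced by glucocorticoid and thyroid hormone, had log2 signals of 3.16, 3.27 and 3.54 in corn oil and 2.73, 2.75 and 2.86 after ADBAQ. The groups did not overlap, and the difference was -0.54 ± 0.11 SE. On the other probe it was -0.64 ± 0.12 SE, with an SD of 0.02 after ADBAQ and again no overlap.

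Zbtb16 encodes PLZF, a zinc finger transcription factor that is strongly induced by glucocorticoids in several tissues. The probe that represents it had log2 signals of -4.39, -4.77 and -4.39 in corn oil and -7.10, -7.08 and -6.88 after ADBAQ. On the scanner's scale these were 55.4, 43.1 and 53.6 units against 9.5, 9.6 and 10.8 units. It was well above background on 3 of 3 corn oil arrays and on 0 of 3 ADBAQ arrays, so its level after ADBAQ is uncertain. The fitted difference was -2.50 ± 0.13 SE. With the lowest signal of any probe well above background put in on each ADBAQ array, the difference was -1.42 (2.67-fold). That signal is not a detection limit of this probe and the value has no error, so it is no firm minimum. With normexp the same probe differed by -0.65, which is smaller in size. Normexp was run with an offset of 50 units, about as large as the corn oil signals of this probe. Such an offset shrinks the log2 difference of a dim probe, so -0.65 is no independent estimate of its size.

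The other probe of Zbtb16 did not show this separation. Its processed signals were 16.2, 28.6 and 224.9 units in corn oil and 28.6, 10.6 and 53.4 units after ADBAQ, and it was well above background on 2 arrays of each group. The groups overlapped, corn oil replicate 3 stood far above the others, and the mean log2 difference was -1.06 with an SD of 2.03 in corn oil and 1.18 after ADBAQ. Both probes name the same transcript. The separation seen for Zbtb16 thus rests on 1 dim probe.

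Ddit4 encodes REDD1, which restrains the growth kinase complex mTORC1 and is induced by glucocorticoids, low oxygen, DNA damage and amino acid shortage. Its log2 signals were 2.88, 2.40 and 2.07 in corn oil and 1.44, 1.30 and 1.45 after ADBAQ. Every ADBAQ array lay below every corn oil array, with a gap of 0.63. The difference was -1.06 ± 0.20 SE, a 2.08-fold lower signal, and 0.65% of genes tested had a difference as low or lower. The other probes gave -1.03 ± 0.20 and -0.96 ± 0.21 SE, both without overlap. On all 3 probes corn oil replicate 1 was the highest array and corn oil replicate 3 the lowest of its group, the reverse of Fkbp5.

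Errfi1, an inhibitor of the epidermal growth factor receptor, had log2 signals of 5.99, 5.90 and 5.46 in corn oil and 5.86, 5.39 and 5.01 after ADBAQ. The groups overlapped and the spread after ADBAQ was wide (SD 0.42). The difference was -0.36 ± 0.25 SE, and it ran from -0.58 without ADBAQ replicate 1 to -0.16 without ADBAQ replicate 3. It has 1 probe.

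Pck1 encodes the cytosolic phosphoenolpyruvate carboxykinase, a rate-controlling enzyme of gluconeogenesis in the proximal tubule. Its log2 signals were 7.93, 7.60 and 7.62 in corn oil and 7.88, 7.97 and 7.86 after ADBAQ. One corn oil animal lay among the ADBAQ values and the other 2 below them. The difference was 0.18 ± 0.10 SE and 0.27 ± 0.12 SE on the other probe, and the first was 0.29 without corn oil replicate 1 and 0.35 without scaling between arrays.

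**Figure D1:**
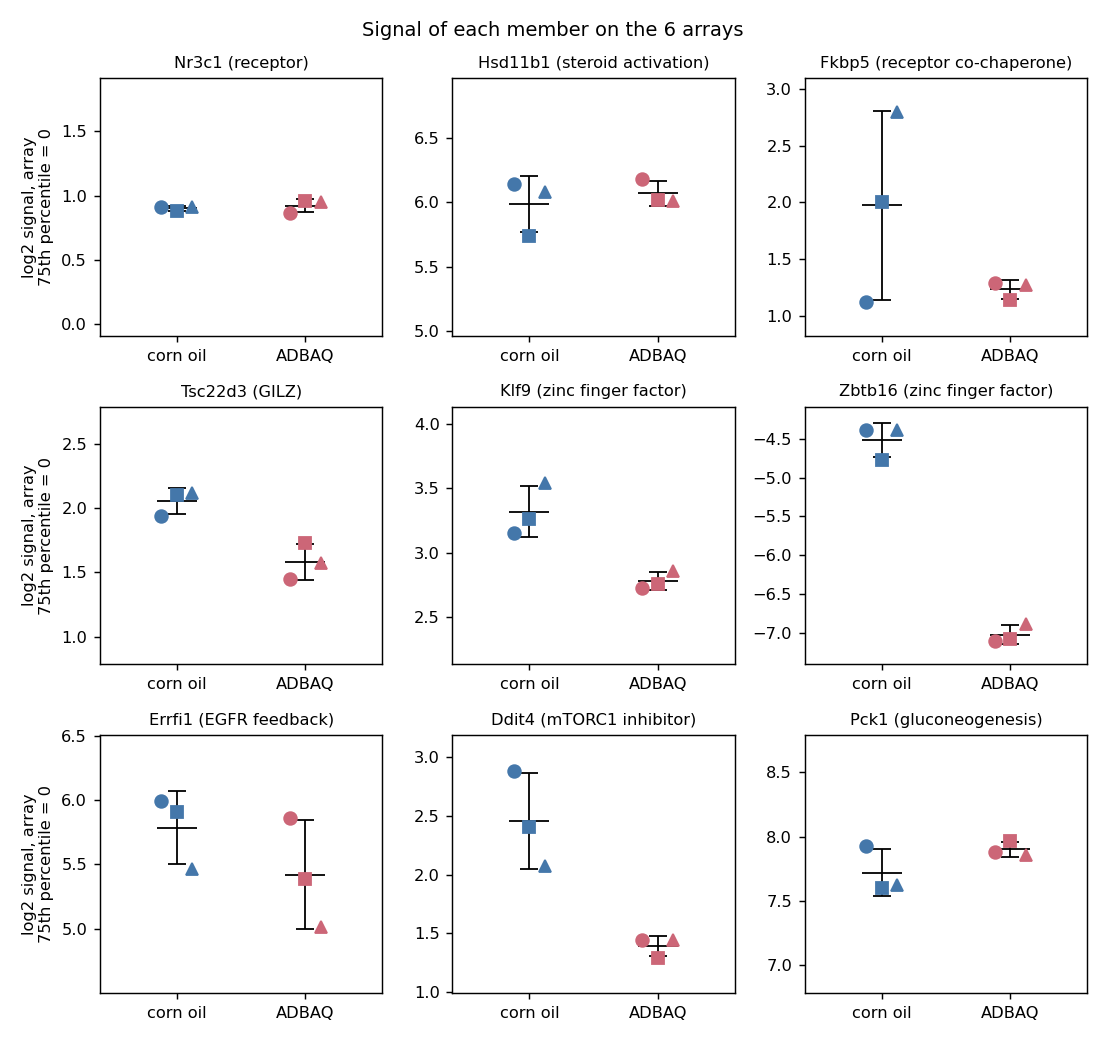
Log2 signal (75th percentile of the array at 0) of the probe representing each of the 9 genes on the 6 arrays. Circles, squares and triangles are replicates 1, 2 and 3 and bars are the mean and SD of 3 arrays. Ddit4, Klf9, Tsc22d3 and Zbtb16 show no overlap, with Zbtb16 not well above background on the ADBAQ arrays, while 1 corn oil array of Fkbp5 lies at the level of the ADBAQ arrays.

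Over the 9 genes the median difference was -0.47, also with Zbtb16 at the -1.42 from the lowest signals, against -0.01 over all 12007 genes. In 4 of the 9 (Tsc22d3, Klf9, Zbtb16 and Ddit4) the groups did not overlap, each time with ADBAQ lower, and in all genes tested this was so for 14.8% in that direction and 27.6% in either. Zbtb16 was the 1 gene of the 9 on limma's list of lower genes (0.0666% of genes tested), and 0 were on that of higher genes (0.225%). Zbtb16 was chosen for its low values and entered through the corn oil arrays alone, so this call supports nothing about it, and it was not made without the detection filter. These counts describe the choice of genes.

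**Figure D2:**
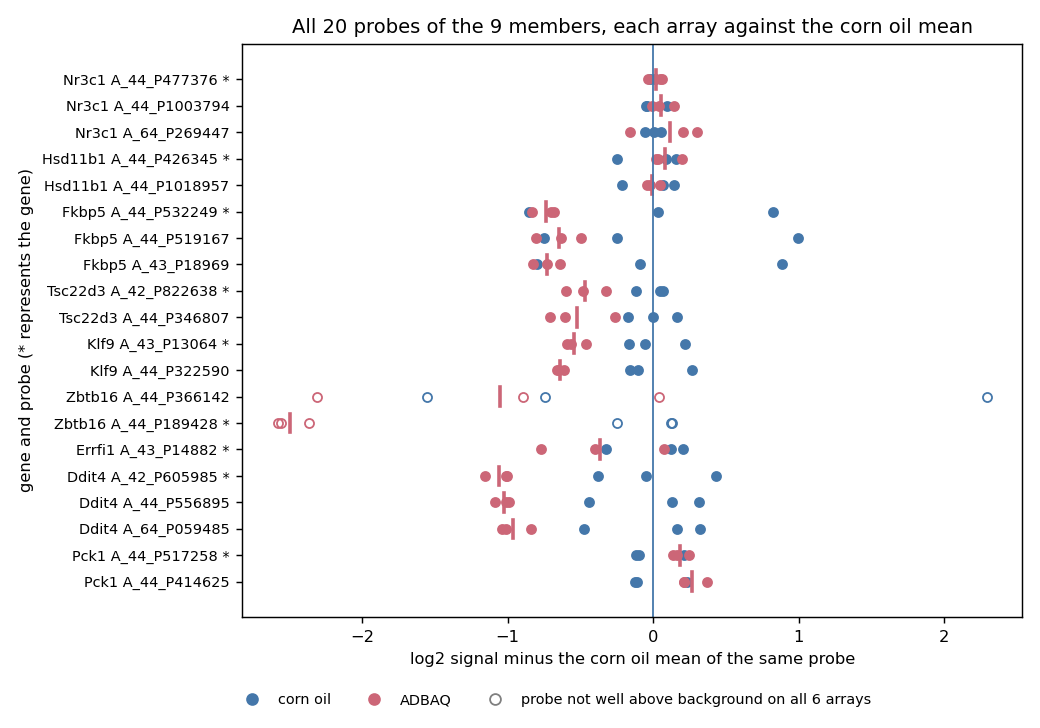
Each of the 20 probes of the 9 genes, as log2 signal minus the corn oil mean of the same probe. Points are arrays, vertical bars are ADBAQ means, open points mark probes not well above background on all 6 arrays, and an asterisk marks the probe that represents the gene. The probes of Ddit4, Klf9 and Tsc22d3 repeat one another, the 3 probes of Fkbp5 share a wide corn oil spread, and the 2 probes of Zbtb16 differ.

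The spread between animals of a group also differed among the 9 genes. They were chosen with earlier results of these data known, so this too is a description. For Fkbp5 the SD was 0.84 in corn oil and 0.08 after ADBAQ, and 1.82% of genes had a corn oil SD as large. For Ddit4 it was 0.41 and 0.09, and 8.25% of genes had a corn oil SD as large. The SD was larger after ADBAQ for Errfi1 (0.28 in corn oil, 0.42 after ADBAQ), and 5.6% of genes had an ADBAQ SD as large. It was also larger after ADBAQ for Tsc22d3 (0.10 and 0.14) and Nr3c1 (0.02 and 0.05). The corn oil SD was the larger in 6 of the 9 genes, against 55.5% of all genes, where the median SD was 0.11 in corn oil and 0.10 after ADBAQ. With 3 animals per group these SDs are imprecise, and their difference was not tested. No single corn oil animal was high throughout. On the probes that represent the genes, replicate 3 was highest for Fkbp5, Klf9 and Tsc22d3 and replicate 1 for Ddit4, Errfi1, Hsd11b1 and Pck1. For Tsc22d3 replicate 2 was close (2.10 against 2.12), and on its other probe replicate 2 was the highest (-1.26 against -1.43 for replicate 3).

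**Figure D3:**
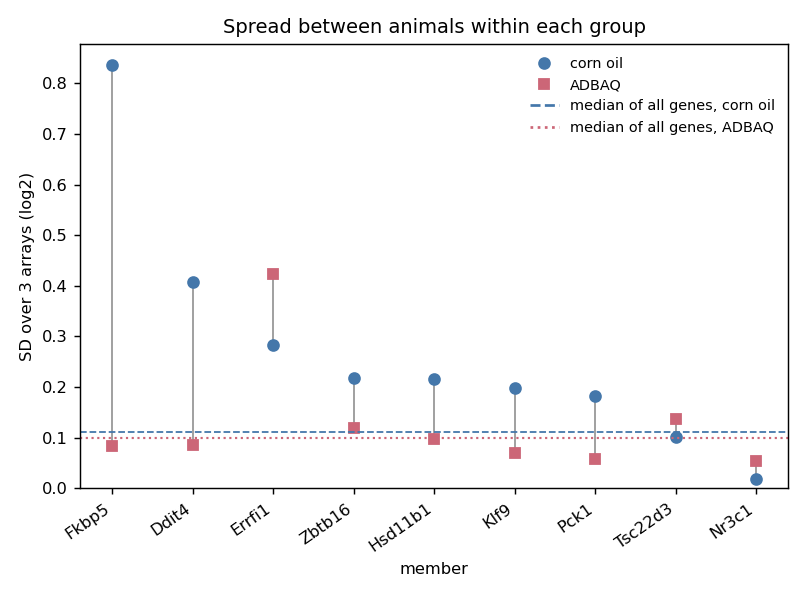
SD over 3 arrays of the log2 signal in corn oil (circles) and after ADBAQ (squares) for each of the 9 genes. Dashed and dotted lines are the medians of all genes tested (0.11 and 0.10). The corn oil SD of Fkbp5, 0.84, is the largest.

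The genes with the most similar pattern over the 6 arrays were named for 3 members, as a description. Because the 2 groups differ, any gene with a steady difference correlates with them. For Zbtb16 they were Rpl32, Fhip1b and Smim26 (Pearson r of 0.999, 0.997 and 0.995), and 216 genes had an r of at least 0.95. For Ddit4 they were Apobec2, Ovol2 and Zfp521 (0.997, 0.996 and 0.992). For Fkbp5, whose pattern is set more by the corn oil animals, they were Abcc10, Pln and Rfng (0.987, 0.984 and 0.984), and 45 genes reached an r of 0.95.

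Other genes that glucocorticoids are known to induce were taken as a list of 41, none of them among the 9. It was drawn up with earlier results of these data known, as were the lists below. Calls within it are therefore not an independent test. Of 38 measured, Mt1 and Mt2A, metallothioneins that bind zinc and copper, fell after ADBAQ in limma's test over all genes (0.0666% called lower), and 0 rose (0.225% called higher). At an unadjusted p under 0.05, 8 were lower and 3 higher, where 10.5% and 8.94% of all genes were (19.4% in either direction). The list median was -0.02 (-0.10 without corn oil replicate 2), against -0.01 over all genes, and 0.15 without scaling between arrays, where the median of all genes was also 0.15. Mt1 had log2 signals of 8.80, 8.95 and 8.87 in corn oil and 8.08, 7.94 and 8.19 after ADBAQ. Its groups lay well apart, with a difference of -0.80 ± 0.09 SE (adjusted p = 0.038). Mt2A differed by -0.73 ± 0.08 SE (adjusted p = 0.038), likewise without overlap. Metallothioneins are close in sequence, so how far the probes of Mt1 and Mt2A separate them is uncertain. The call was lost for Mt1 without any 1 of the 6 arrays (adjusted p of 0.057 to 0.15), and for Mt2A without any except ADBAQ replicate 3. With the replicate number as a block it was lost for both (adjusted p of 0.16 and 0.13).

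Sgk1 and Per1 are among the quickest genes to respond to glucocorticoids. Sgk1, a kinase that promotes sodium channel activity and also responds to aldosterone, had log2 signals of 3.16, 3.40 and 3.09 in corn oil and 1.61, 1.74 and 2.22 after ADBAQ. The groups did not overlap. The difference of -1.36 ± 0.18 SE missed the threshold (adjusted p = 0.055), and it passed without ADBAQ replicate 3 (adjusted p = 0.038), without scaling (0.036), with normexp (0.027) and with an intensity trend (0.031). Over the alternatives it ran from 0.027 to 0.21. Per1, a clock gene with glucocorticoid response elements, was chosen after its values were seen. Its log2 signals were -1.46, -1.96 and -2.15 in corn oil and -3.36, -3.50 and -3.00 after ADBAQ. All ADBAQ arrays lay below all corn oil arrays, with a difference of -1.43 ± 0.21 SE (adjusted p = 0.070, and 0.038 to 0.23 over the alternatives).

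The looser palindrome was in 2 of the 36 windows matched for 32 genes of this list (0.439% of all windows). The arm TGTTCT was in 5 (20.7%), among them those of Trim63 and Fam107a, where it overlaps the palindrome. Both stretches are shown with the palindrome in capitals.
Trim63 (chr5:151817005-151817041, plus strand): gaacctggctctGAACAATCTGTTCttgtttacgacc
Fam107a (chr15:19046359-19046395, plus strand): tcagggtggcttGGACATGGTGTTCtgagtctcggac
Trim63, a ubiquitin ligase of muscle atrophy, differed by -0.37 ± 0.16 SE (adjusted p = 0.27) and its palindrome began at -219. Fam107a, an actin-binding protein, differed by -0.10 ± 0.06 SE (adjusted p = 0.45), with the palindrome at -210. Both were chosen for the motif.

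Inflammatory genes that glucocorticoids hold down had a list median of 0.26 (0.12 without corn oil replicate 2, and 0.43 without scaling, where that of all genes was 0.15). Of 10 measured, 0 were called by limma and 2 had an unadjusted p under 0.05, both higher (8.94% of all genes were). Of the 10 differences, 3 were below 0, those of Ptgs2 (-0.68 ± 0.92 SE), Vcam1 (-0.14 ± 0.14) and Ccl5 (-0.08 ± 0.14), named after their values were seen. The chemokine Ccl2 had log2 signals of -1.53, -0.69 and -1.02 in corn oil and 0.08, 0.01 and -0.44 after ADBAQ. The groups did not overlap (0.96 ± 0.25 SE, adjusted p = 0.14). The cytokine Il1b differed by 0.44 ± 0.12 SE (adjusted p = 0.14, and 0.046 without scaling, the lowest of a range up to 0.31) and the chemokine Cxcl10 by 0.24 ± 0.10 SE (adjusted p = 0.26). The 5 measured leukocyte markers of 6, none of them called, had summed linear signals of 3.38 to 3.98 times the 75th percentile in corn oil and 3.53 to 4.04 after ADBAQ. Among them the myeloid marker Itgam, singled out after its values were seen, differed by 1.27 ± 0.35 SE (adjusted p = 0.16), with no overlap and detection on 1 corn oil array and 3 ADBAQ arrays. Cd3e went the other way, by -0.78 ± 0.33 SE (adjusted p = 0.27). Ptprc, Cd68 and Csf1r differed by 0.13 ± 0.11, 0.04 ± 0.11 and 0.03 ± 0.08 SE. The part of leukocytes in these values was not tested.

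Chaperones and immunophilins of the receptor complex lay close to the bulk of genes. Of 12 measured, 0 were called and 2 had an unadjusted p under 0.05, both lower (10.5% of all genes were). The list median was -0.06 (0.10 without scaling). The ubiquitin ligase Stub1 differed by -0.17 ± 0.05 SE (adjusted p = 0.18), the phosphatase Ppp5c by -0.15 ± 0.05 (0.21) and the immunophilin Ppid by 0.15 ± 0.08 (0.37). Of 6 coregulators measured, 0 were called. The corepressor Nrip1 differed by -0.22 ± 0.09 SE (adjusted p = 0.27) and the remodelling ATPase Smarca4 by 0.11 ± 0.07 (0.41).

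Genes of steroid supply and handling gave 0 calls among 6 measured. At an unadjusted p under 0.05, 1 was lower and 1 higher (10.5% and 8.94% of all genes). Abcb1a, a P-glycoprotein that exports steroids and drugs, differed by -1.42 ± 0.47 SE (adjusted p = 0.19), and its probe was detected on 3 corn oil arrays but 1 ADBAQ array. The steroid 5-alpha reductase Srd5a1 differed by 0.32 ± 0.11 SE (adjusted p = 0.21). Nr3c2, the mineralocorticoid receptor that binds the same hormone, differed by 0.05 ± 0.06 SE (adjusted p = 0.66).

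The surroundings of Pck1, Ddit4 and Errfi1 were described by 3 further lists, in which limma called 0 genes. At an unadjusted p under 0.05, 8.94% of all genes were higher and 10.5% lower. Of 14 genes of gluconeogenesis and ammonia formation, 4 were higher and 1 lower at an unadjusted p under 0.05, with a median of 0.03. The malate dehydrogenase Mdh1 differed by 0.36 ± 0.07 SE (adjusted p = 0.11), and the coactivator Ppargc1a by 0.22 ± 0.06 (0.15). Both passed without scaling (adjusted p of 0.031 and 0.038) and in no other alternative, where they reached 0.28 and 0.33. The stress factor ATF4 also induces Ddit4. In a list of 13 genes, made of Atf4 and its targets, 3 were higher and 1 lower at an unadjusted p under 0.05. The median of this list was -0.05 (0.11 without scaling). Here the kinase-like regulator Trib3 differed by 0.88 ± 0.25 SE (adjusted p = 0.16), the asparagine synthetase Asns by 0.39 ± 0.13 (0.19) and the serine synthesis enzyme Psat1 by -0.28 ± 0.07 (0.14). In all, 7 of the 13 differences were below 0, where 52.3% of all genes were. That of Atf4 itself was among them (-0.14 ± 0.08 SE, adjusted p = 0.36, chosen after its value was seen).

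Among 9 measured partners in growth signalling, 2 were lower and 0 higher at an unadjusted p under 0.05 (10.5% and 8.94% of all genes). Egfr, the receptor that the protein of Errfi1 inhibits, had log2 signals of 0.47, 0.74 and 0.67 in corn oil and -0.07, 0.02 and -0.15 after ADBAQ. The groups did not overlap, and the difference was -0.69 ± 0.09 SE (adjusted p = 0.057, with 0.034 under normexp, 0.039 without scaling and 0.031 with an intensity trend, and up to 0.20 in the other 12 alternatives). Tsc1, which like Ddit4 acts against mTORC1, differed by -0.36 ± 0.11 SE (adjusted p = 0.18) and Mtor itself by 0.15 ± 0.09 (0.37).

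**Figure D4:**
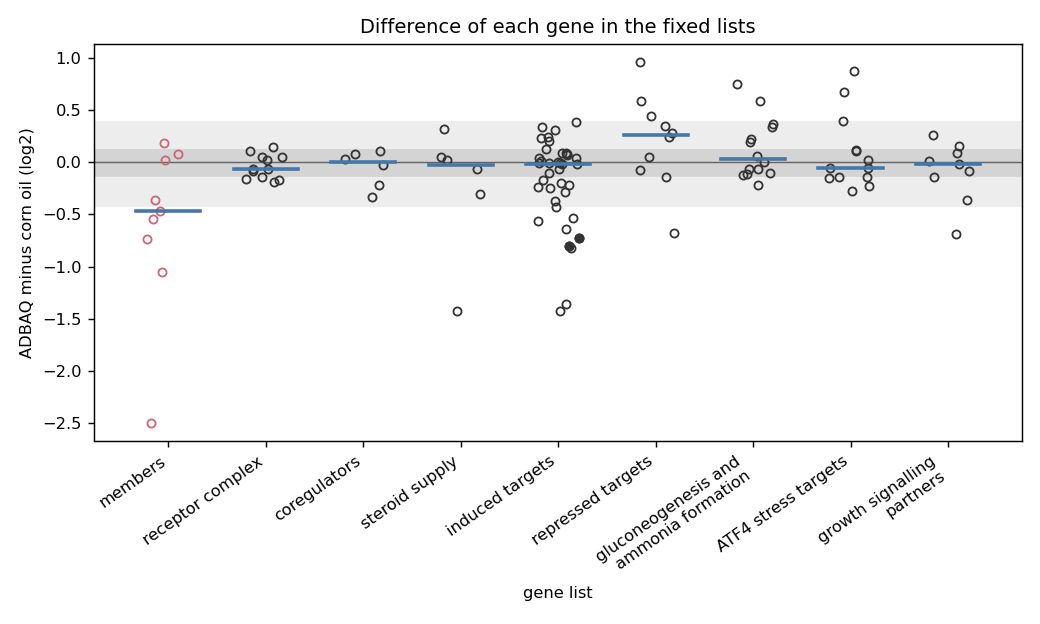
Difference of ADBAQ minus corn oil (log2) for the 9 genes and for each measured gene of the 8 pathway lists. Blue lines are list medians, filled points are the 2 genes called by limma (Mt1 and Mt2A; the 9 genes are drawn open because they were chosen on this contrast), and dark and light grey bands hold the central 50% and 90% of all genes tested. Zbtb16 is drawn at its fitted value of -2.50, and is at -1.42 with the lowest signal well above background put in on each ADBAQ array.

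Markers of other cells were set beside these values. In bulk tissue, fewer cells of a type and less RNA per cell cannot be told apart. All 3 measured red cell markers of 4 were called higher (0.225% of all genes were), with Alas2 up by 1.61 ± 0.09 SE (adjusted p = 0.0065). Their summed signals were 160 to 175 times the 75th percentile in corn oil and 317 to 368 after ADBAQ. These sums were almost all the signal of 1 marker, Hbb. The mean log2 signals in corn oil were 7.385 for Hbb, 0.474 for Alas2 and -4.794 for Hemgn. For 6 proximal tubule markers, all measured and none called, the sums were 1070 to 1100 and 971 to 1030. Of these, 3 were lower at an unadjusted p under 0.05 (10.5% of all genes were). The lowest difference was that of the water channel Aqp1, named after its value was seen (-0.44 ± 0.11 SE, adjusted p = 0.14, no overlap), and Lrp2 differed by -0.18 ± 0.07 SE (adjusted p = 0.25). The part of either in the differences of the 9 genes was not tested. Of 6 adrenal cortex genes, Star, Cyp11b1 and Cyp11b2 did not pass the detection filter, and the other 3 summed to 0.663 to 1.35 in corn oil and 0.769 to 1.01 after ADBAQ. Sums for the remaining lists overlapped between groups, except for the adrenal medulla (2.25 to 2.46 against 2.73 to 2.91, from Th and Pnmt, with Dbh and Chga not past the filter).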

How the data were processed

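RNA of the renal cortex of 6 rats was read on 1-colour Agilent arrays of 62976 spots. Per the file headers, Feature Extraction 10.7.1.1 (version 10.7 per the submitters' processing notes) gave the deposited processed signal, a background-subtracted intensity on a linear scale, and flags per spot (other units). The authors' deposited value table is a ratio of that signal to 1 constant per array, within 0.0858% of the 75th percentile, not centred, and its column medians were 0.11, 0.113 and 0.112 (corn oil) and 0.113, 0.114 and 0.111 (ADBAQ). The sources used here do not say how the constant was chosen.

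Spots left out were 1319 controls and the 73 probes that an array marked as outliers. Signals were taken as log2 after division by the 75th percentile of each array. The test took the 42256 probes that either group had well above background on each of its 3 arrays. Accessions without versions were matched to RefSeq symbols (GRCr8, while the headers name an older rat build, so that table served for names only): 27460 of 61657 probes matched 1 gene and 34197 none. A gene was represented by its tested probe with the highest mean, giving 12007 genes. The comparison of groups used limma 3.58.1 under R 4.3.3 (lmFit, then eBayes, two-sided, Benjamini-Hochberg at 0.05, no covariates). SEs of single probes come from the same model fitted over all tested probes. The replicates are separate animals, per the labels, and 3 per group limit the precision. An exact permutation test of 3 against 3 cannot go below 0.1. Plots come from matplotlib 3.10.9 and pandas 2.3.3 under Python 3.11.15. Tested on simulated data for 12007 genes, limma recovered 41.8% of changes of 0.5 on the log2 scale. It recovered 77.2% of changes of 1 and 91.8% of changes of 2, with 6.9 false calls per run. These shares hold for the simulated setting and need not hold for these arrays.

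The members and lists were chosen with earlier results of these data known. Named genes are all members, and of each list up to 4 genes called (or the genes with the smallest p until 3 are named), at most 2 leading genes of each marker list and, for 3 members, the 3 genes with the highest Pearson r. Exceptions are stated, and some genes that the rule allows are not reported here. The alternatives were leaving out each array, normexp background correction (offset 50, on the median intensities), no scaling, quantile normalization, the authors' ratios, 2 detection filters, the mean of probes, an intensity trend with robust variances and the replicate number as a block. Same-numbered animals had deviations that correlated at 0.01, 0.16 and 0.04 across genes, so the numbers were not taken as pairs.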

Additional observations from a re-analysis of the deposited data

How the results depend on the processing

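Over 15 alternatives the differences of Fkbp5, Tsc22d3, Klf9, Errfi1 and Ddit4 stayed below 0 and that of Pck1 above it. Nr3c1 was -0.11 with normexp and Hsd11b1 -0.04 without corn oil replicate 2. Zbtb16 stayed below 0 in the 14 that could give a value, at -2.63 to -2.44 when 1 array was left out, -0.65 with normexp and -1.06 without the detection filter, where its other probe has the higher mean. It has no value among probes above background on all 6 arrays. The other probes of the 9 genes were added as an alternative after seeing the data.

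Genes called higher and lower numbered 11 to 25 and 3 to 10 when 1 array was left out, 67 and 78 with normexp, 1027 and 54 without scaling, 72 and 84 with robust variances on an intensity trend, and 21 and 4 without the detection filter. With the replicate number as a block limma called 0 and 0 (2266 genes at an unadjusted p under 0.05). The number of the 9 genes on limma's list of lower genes was 1, Zbtb16, whichever array was left out. That is fixed by the choice of the gene and by the filter and shows no stability. The number was 0 with the block, 0 without the filter and 0 among probes above background on all arrays. Of the induced targets, 0 to 2 were called lower when 1 array was left out, 4 with normexp, 4 without scaling (2 higher), 4 with the trend, and 0 with the block and 0 without the filter, where 7 and 8 were lower at an unadjusted p under 0.05. Counts under quantile normalization, the authors' ratios and the mean of probes lay within 1.5 times the main ones. The cause of these changes was not tested. For Zbtb16, signal over background limits what can be read.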
